A study of Danio rerio with 20 samples.

Results

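The genes described here are those of the zebrafish segmentation clock and of the somite boundary that follows it: her1, her7, hes6, dlc, dld, tbx6, mespaa, mespba, mespbb and ripply1. The 10 symbols were looked up in the expression table and gave 11 rows of 32057 gene IDs, because hes6 is carried by 2 IDs. All 11 rows passed the filter on low values, a mean of at least 1 TPM over the 20 libraries. TPM is a share of the library's transcripts scaled for gene length, so levels of different genes can be compared on it. The row named DLD is set apart throughout. The name table gives zebrafish genes with a human counterpart the human symbol in capitals, and human DLD is dihydrolipoamide dehydrogenase, a mitochondrial enzyme subunit, and no Notch ligand. Counts of members are therefore over the 10 rows without DLD.

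MPNP pools held un-genotyped progeny of mdm2+/- fish intercrossed in a puma-/-; noxa-/-; p21-/- background, so that their embryos were mdm2-/-, mdm2+/- or mdm2+/+ and about 25% of them were expected to be mdm2-/-; the actual share in each pool was not measured. PNP pools held embryos that were puma-/-; noxa-/-; p21-/- with no mdm2 mutation named. Both kinds of pool thus carry mutations in puma, noxa and p21, mediators of cell death and arrest downstream of p53, and differ in mdm2, which encodes the ubiquitin ligase that keeps p53 down. RNA of whole embryos, about 50 per group, was sequenced at 8, 10, 12, 14 and 16 hours post fertilization (hpf), with 2 libraries per pool and stage and 20 in all. A difference confined to mdm2-/- embryos would appear diluted in an MPNP pool, and in whole embryos fewer presomitic cells and less RNA per cell cannot be told apart.

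Somites form in sequence from the presomitic mesoderm, the tissue on either side of the growing body axis. In its cells the transcription factors Her1 and Her7 switch their own genes off again and again, Hes6 pairs with them, and the Notch ligands DeltaC and DeltaD keep neighbouring cells in step. As cells leave the tailbud, Tbx6 and the Mesp factors set the next boundary, and Ripply1 ends their activity. A pool of many embryos averages over the phases of the clock, so the levels below describe the amount of these transcripts at a stage and not their oscillation. The earliest stage falls in gastrulation, before any somite, and the latest in somite formation.

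The levels of the mutated genes come before those of the members. The mdm2 transcript was at 317 and 325 TPM in MPNP pools and at 113 and 114 TPM in PNP pools at 16 hpf, and the pools did not overlap from 12 hpf on, whereas they overlapped at 8 and 10 hpf. At 16 hpf bbc3, the gene mutated in puma-/- fish, was at 7.63 and 8.81 TPM in MPNP pools and 1.49 and 1.32 TPM in PNP pools; cdkn1a (p21) was at 10.2 and 9.39 TPM in MPNP pools and 3.72 and 2.57 TPM in PNP pools at 14 hpf. At 16 hpf the pmaip1 (noxa) transcript was at 6.28 and 17.3 TPM in MPNP pools and 3.11 and 6.11 TPM in PNP pools, its spread lying mainly between the libraries numbered 1 and 2. From 13080 to 15326 genes per library were at 1 TPM or more. The read depth of these TPM values is unknown.

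**Figure D1:**
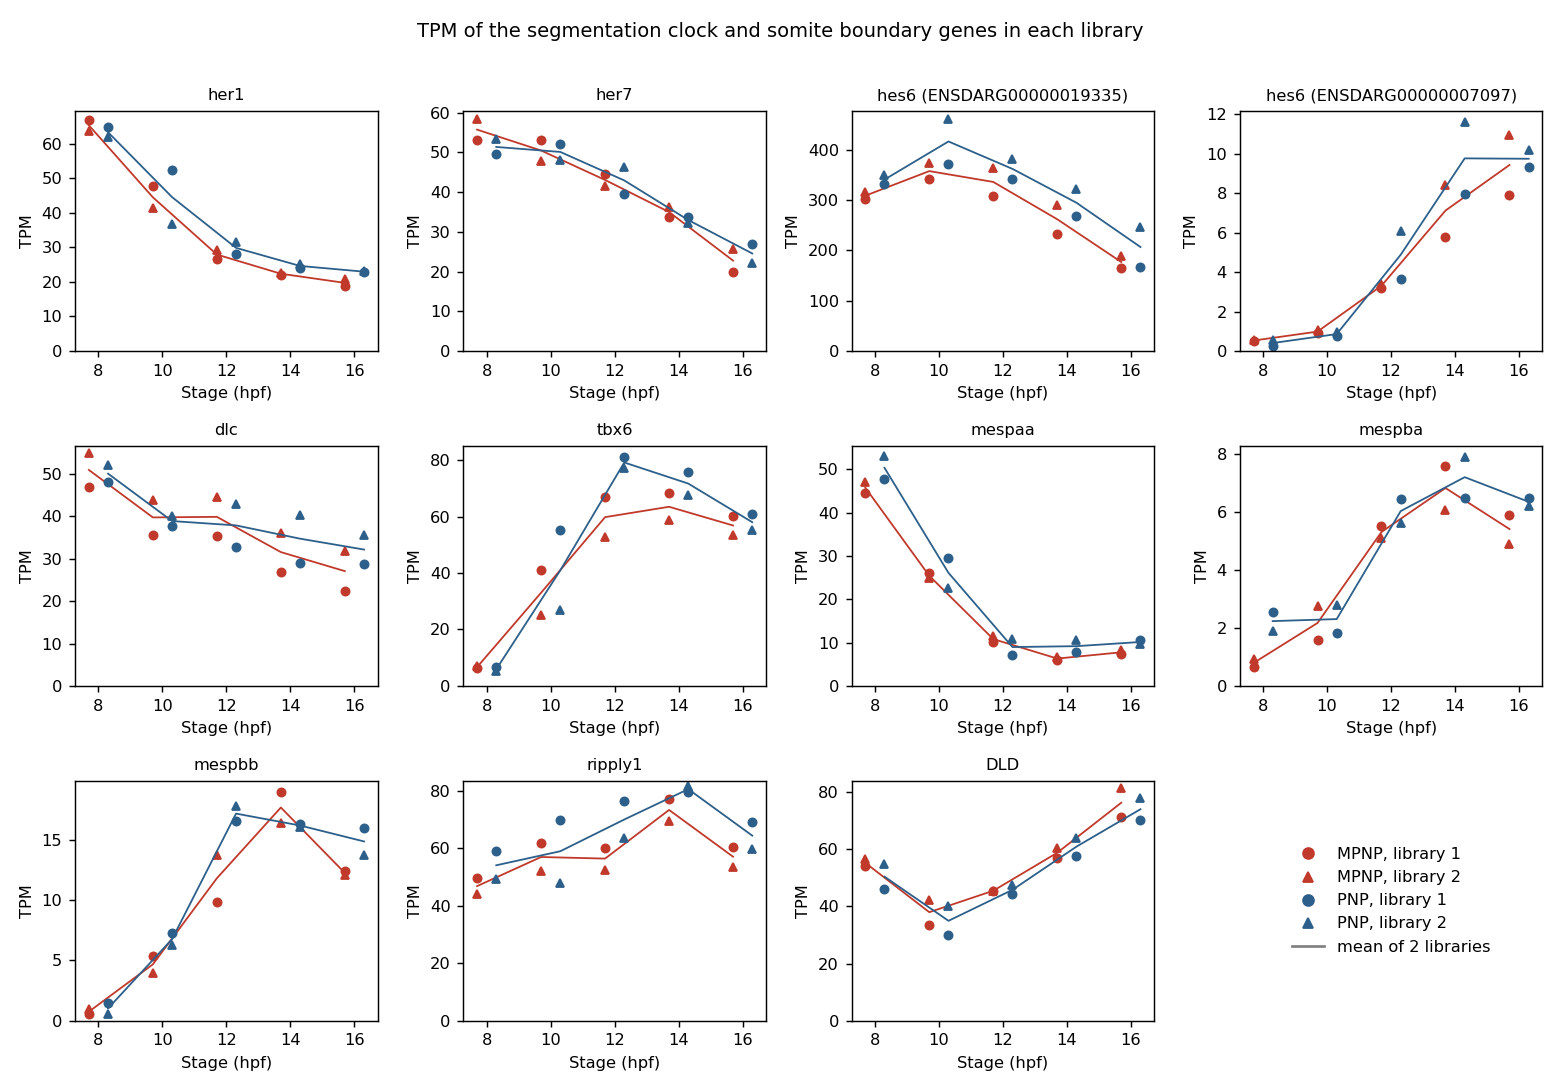
TPM on the vertical axis against stage in hpf, 1 panel per row, with MPNP libraries in red left of PNP libraries in blue; circles are libraries numbered 1, triangles libraries numbered 2, and lines join the means of 2 libraries. Levels differ between stages more than between pools, with ripply1 varying least.

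The members took opposite courses between 8 and 16 hpf. The level of her1, her7, dlc, mespaa and 1 of the hes6 rows fell, and that of tbx6, mespba, mespbb and the other hes6 row rose, while ripply1 stayed within a narrow range. Averaged over the pools (n = 4 libraries per stage), the 16 hpf level minus the 8 hpf level passed the test for 9 of 10 members, 4 higher and 5 lower, against 76% of all 14774 genes tested, 44.4% higher and 31.6% lower (limma, Benjamini-Hochberg adjusted p below 0.05, as for every adjusted p given here). An F test over the 5 stages passed for 10 of 10 members, against 77.9% of all genes, so a stage course as such is common to most transcripts at this time. The median of all genes moved by 0.20 (log2) between 8 and 16 hpf, and scaling the libraries by median-of-ratios size factors moved that median by -0.14.

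Her1 is a transcriptional repressor at the core of the clock. In MPNP pools her1 was at 67.0 and 63.7 TPM at 8 hpf, 47.8 and 41.3 at 10, 26.8 and 29.1 at 12, 22.1 and 22.6 at 14 and 18.7 and 20.8 TPM at 16 hpf. In PNP pools it was at 64.8 and 61.9 TPM at 8 hpf, 52.3 and 36.9 at 10, 28.2 and 31.6 at 12, 23.9 and 25.3 at 14 and 22.8 and 23.2 TPM at 16 hpf. Libraries of 8 hpf were all above those of 10 hpf, and those all above 12 hpf, with most of the fall before 12 hpf. The log2 level changed by -0.53 ± 0.10 (SE; adjusted p = 0.000994) at the step to 10 hpf and by -0.60 ± 0.10 (adjusted p = 0.000403) at the step to 12 hpf. The later steps of -0.29 ± 0.10 and -0.14 ± 0.10 did not pass (adjusted p = 0.0551 and 0.43). From first to last stage the mean level of her1 dropped 3.01-fold.

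Her7, the other core repressor, is encoded by the next coding gene to her1 on chromosome 5 of the GRCz12tu annotation, used here for gene order only. In MPNP pools her7 was at 53.0 and 58.4 TPM at 8 hpf, 53.2 and 47.7 at 10, 44.6 and 41.4 at 12, 33.7 and 36.3 at 14 and 19.9 and 25.6 TPM at 16 hpf. PNP pools held it at 49.5 and 53.2 TPM at 8 hpf, 52.2 and 48.0 at 10, 39.6 and 46.3 at 12, 33.8 and 32.2 at 14 and 26.9 and 22.2 TPM at 16 hpf. The libraries of 8 and 10 hpf overlapped, and the steps that passed came after 12 hpf; with median-of-ratios scaling the step to 12 hpf passed as well (-0.30 ± 0.11, adjusted p = 0.0373). The step to 14 hpf was -0.33 ± 0.10 (adjusted p = 0.0245) and the step to 16 hpf -0.51 ± 0.10 (adjusted p = 0.00258). With the replicate number as a block neither passed (adjusted p = 0.223 and 0.073), while the whole fall between 8 and 16 hpf, -1.15 ± 0.10, had an adjusted p of 1.11e-07.

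The neighbouring genes therefore did not keep 1 ratio. The TPM of her1 over that of her7 lay between 1.09 and 1.31 in the 4 libraries of 8 hpf, between 0.768 and 1.00 at 10 hpf, between 0.599 and 0.712 at 12 hpf, between 0.624 and 0.788 at 14 hpf and between 0.813 and 1.04 at 16 hpf. At 8 hpf her1 was the more abundant in every library, and at 12 and 14 hpf her7 was. Between 8 and 16 hpf the log2 ratio changed by -0.41 (2-sided exact permutation test over 4 against 4 libraries, p = 0.0286, the smallest it allows; adjusted p = 0.0286 over the 3 ratios tested). This ratio and the other 2 given below were chosen with the levels known, so their p-values are no independent support. The test treats the 4 libraries of a stage as exchangeable, although same-numbered MPNP and PNP libraries deviated together, so its p may be too small.

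**Figure D2:**
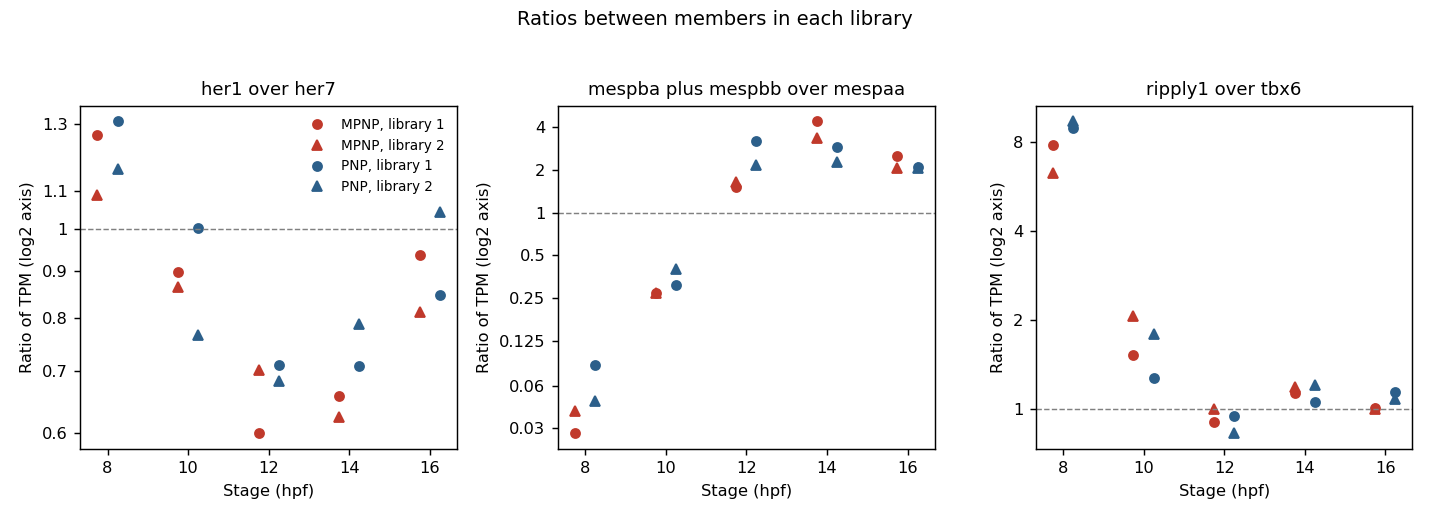
Ratio of TPM between members in each library, on a log2 axis, against stage in hpf; MPNP libraries in red stand left of PNP libraries in blue, and the dashed line marks equal levels. All 3 ratios move with stage more than between pools: her1 over her7 reaches its lowest values at 12 and 14 hpf, mesp-b over mespaa climbs until 12 or 14 hpf, and ripply1 over tbx6 drops to near 1 by 12 hpf.

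The 2 rows named hes6 took different courses. Hes6 is a bHLH protein that dimerizes with Her repressors. The name table does not say which row is the gene zebrafish workers call hes6, so each is given with its ID. The row hes6 (ENSDARG00000019335) was the most abundant member at every stage. In MPNP pools it was at 301 and 316 TPM at 8 hpf, 341 and 374 at 10, 308 and 364 at 12, 233 and 290 at 14 and 165 and 188 TPM at 16 hpf. The PNP libraries had 332 and 349 TPM at 8 hpf, 371 and 462 at 10, 342 and 382 at 12, 268 and 321 at 14 and 166 and 247 TPM at 16 hpf. The level was highest at 10 hpf and lowest at 16 hpf, 2.02-fold apart, and the step from 14 to 16 hpf of -0.55 ± 0.13 was the first that passed (adjusted p = 0.0119; the block gave 0.0475). With median-of-ratios scaling the step to 14 hpf passed too (-0.34 ± 0.09, adjusted p = 0.0156).

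The row hes6 (ENSDARG00000007097) was scarce at first. In MPNP pools it was at 0.51 and 0.55 TPM at 8 hpf, 0.89 and 1.08 at 10, 3.21 and 3.41 at 12, 5.80 and 8.44 at 14 and 7.89 and 11.0 TPM at 16 hpf. For PNP pools the values were 0.27 and 0.54 TPM at 8 hpf, 0.78 and 0.94 at 10, 3.66 and 6.10 at 12, 7.94 and 11.6 at 14 and 9.32 and 10.2 TPM at 16 hpf. No library of 12 hpf or later overlapped one of 8 or 10 hpf. Its mean climbed 20.5-fold, with steps of 1.38 ± 0.17 to 12 hpf (adjusted p = 2.85e-05) and 0.89 ± 0.17 to 14 hpf (adjusted p = 0.0017); with median-of-ratios scaling the step to 10 hpf passed as well (0.37 ± 0.13, adjusted p = 0.0377). On the log2(TPM + 1) scale such changes of a low gene are understated.

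DeltaC, the product of dlc, is the ligand whose level cycles with the clock. In MPNP pools dlc was at 46.9 and 54.9 TPM at 8 hpf, 35.6 and 43.9 at 10, 35.3 and 44.4 at 12, 27.0 and 36.1 at 14 and 22.4 and 31.7 TPM at 16 hpf. In PNP pools it was at 48.1 and 52.0 TPM at 8 hpf, 37.6 and 40.1 at 10, 32.8 and 42.9 at 12, 29.1 and 40.4 at 14 and 28.8 and 35.6 TPM at 16 hpf. Neighbouring stages overlapped from 10 hpf on, and within each group the library numbered 2 was the higher. No single step passed, though with median-of-ratios scaling the step to 10 hpf did (-0.45 ± 0.11, adjusted p = 0.00422). The fall from 8 to 16 hpf of -0.77 ± 0.16 passed (adjusted p = 0.000526); in PNP libraries alone the F test over stages did not.

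No row could be assigned to dld. The DLD row lay between 33.6 and 81.2 TPM in MPNP libraries and between 29.8 and 77.7 TPM in PNP libraries, with its lowest mean of 36.4 TPM at 10 hpf and its highest of 75.0 TPM at 16 hpf. The step to 10 hpf was -0.53 ± 0.11 (adjusted p = 0.00152). Those to 12 and 14 hpf, 0.33 and 0.38, passed as well (adjusted p = 0.0251 and 0.0182), though not with the replicate block (adjusted p = 0.059 and 0.0553). This course is reported as that of the row's own symbol. Another pair of rows shares the human symbol of the delta genes, dll1, and the table does not tell them apart. Of these ENSDARG00000020219 was at 92.3 and 86.7 TPM in MPNP pools and 94.8 and 94.4 TPM in PNP pools at 8 hpf, and at 47.4 and 49.2 TPM in MPNP pools and 55.2 and 54.4 TPM in PNP pools at 16 hpf. The row ENSDARG00000010791 was at 8.32 and 9.39 TPM in MPNP pools and 8.47 and 9.28 TPM in PNP pools at 8 hpf, and at 21.5 and 23.9 TPM in MPNP pools and 25.6 and 27.9 TPM in PNP pools at 16 hpf. In every library the abundant row was lower at 16 than at 8 hpf and the scarce one higher.

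Tbx6 is the T-box factor that the mesp genes need in the anterior presomitic mesoderm. In MPNP pools tbx6 was at 6.32 and 7.00 TPM at 8 hpf, 40.9 and 25.1 at 10, 66.8 and 52.8 at 12, 68.2 and 58.8 at 14 and 60.1 and 53.6 TPM at 16 hpf. PNP pools held it at 6.60 and 5.21 TPM at 8 hpf, 55.1 and 26.7 at 10, 81.2 and 77.2 at 12, 75.8 and 67.6 at 14 and 60.8 and 55.3 TPM at 16 hpf. All libraries of 8 hpf lay below 10 hpf, and at 10 hpf the libraries numbered 1 were far above those numbered 2 in both pools. The steps of 2.32 ± 0.20 to 10 hpf (adjusted p = 1.32e-06) and 0.94 ± 0.20 to 12 hpf (adjusted p = 0.00192) passed, and the mean at 12 hpf was 11.1-fold that at 8 hpf.

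The Mesp factors are bHLH proteins of the segment about to form. The mesp-a gene mespaa led: in MPNP pools it was at 44.5 and 47.0 TPM at 8 hpf, 26.0 and 24.8 at 10, 10.1 and 11.5 at 12, 6.00 and 6.62 at 14 and 7.29 and 8.22 TPM at 16 hpf. The PNP libraries had 47.6 and 53.0 TPM at 8 hpf, 29.5 and 22.7 at 10, 7.12 and 10.8 at 12, 7.82 and 10.5 at 14 and 10.7 and 9.60 TPM at 16 hpf. Its level dropped without overlap at both early steps, by -0.88 ± 0.13 (adjusted p = 0.000158) and -1.31 ± 0.13 (adjusted p = 5.46e-06), and the mean at 14 hpf was 6.21-fold below that at 8 hpf. Its paralog mespab, a gene of the presomitic list and no member, took the same direction (16 minus 8 hpf -2.63 ± 0.14, adjusted p = 1.41e-09). At 8 hpf mespab was at 96.2 and 98.1 TPM in MPNP pools and 109 and 125 TPM in PNP pools, and at 16 hpf at 12.9 and 18.0 TPM in MPNP pools and 16.8 and 18.7 TPM in PNP pools.

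The mesp-b genes went the opposite way. In MPNP pools mespbb was at 0.57 and 0.94 TPM at 8 hpf, 5.38 and 3.97 at 10, 9.86 and 13.7 at 12, 18.9 and 16.4 at 14 and 12.4 and 12.1 TPM at 16 hpf. For PNP pools the values were 1.47 and 0.58 TPM at 8 hpf, 7.27 and 6.25 at 10, 16.6 and 17.8 at 12, 16.3 and 16.1 at 14 and 16.0 and 13.7 TPM at 16 hpf. The libraries of 8, 10 and 12 hpf did not overlap, with steps of 1.83 ± 0.15 to 10 hpf (adjusted p = 1.07e-06) and, with a 95% interval, of 0.87 to 1.53 to 12 hpf (adjusted p = 4.24e-05).

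The other mesp-b gene, mespba, was the lower of the pair from 10 hpf on. In MPNP pools it was at 0.66 and 0.92 TPM at 8 hpf, 1.60 and 2.74 at 10, 5.52 and 5.10 at 12, 7.57 and 6.08 at 14 and 5.91 and 4.91 TPM at 16 hpf. In PNP pools it was at 2.56 and 1.91 TPM at 8 hpf, 1.82 and 2.79 at 10, 6.44 and 5.62 at 12, 6.49 and 7.91 at 14 and 6.48 and 6.22 TPM at 16 hpf. All libraries of 12 hpf and later were above all earlier ones. The step of 1.06 ± 0.14 to 12 hpf passed (adjusted p = 7.79e-05). The step of 0.41 ± 0.14 to 10 hpf passed as well (adjusted p = 0.038), though not with the replicate block (adjusted p = 0.168), with median-of-ratios scaling (0.062) or without the filter on low values (0.0648). Between 8 and 10 hpf the mean went from 0.79 to 2.17 TPM in MPNP pools and from 2.235 to 2.305 TPM in PNP pools, so the step lay mainly in MPNP pools. A difference of this step between the pools was not tested.

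In the GRCz12tu annotation mespaa stands next to mespba on chromosome 7, and mespab next to mespbb on chromosome 25. Each neighbouring pair thus holds 1 gene that fell and 1 that rose. The sum of mespba and mespbb over mespaa was between 0.0277 and 0.0846 in the libraries of 8 hpf, between 0.269 and 0.399 at 10 hpf, between 1.52 and 3.23 at 12 hpf, between 2.28 and 4.42 at 14 hpf and between 2.07 and 2.51 at 16 hpf. Each library of 8 and 10 hpf thus had less of the mesp-b genes than of mespaa and each later library more. From 8 to 16 hpf the log2 ratio changed by 5.58 (2-sided exact permutation test over 4 against 4 libraries, p = 0.0286). With mespab added to mespaa the ratio lay between 0.0087 and 0.0257 at 8 hpf, between 0.0771 and 0.121 at 10 hpf, between 0.673 and 1.02 at 12 hpf, between 0.803 and 1.39 at 14 hpf and between 0.648 and 0.908 at 16 hpf. On that measure, added after seeing the data, mesp-b exceeded mesp-a in 1 of 4 libraries at 12 hpf, 1 of 4 at 14 hpf and 0 of 4 at the other stages.

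Ripply1 binds T-box factors and recruits a corepressor, and so closes the Mesp phase at the boundary. In MPNP pools ripply1 was at 49.5 and 44.1 TPM at 8 hpf, 61.9 and 52.0 at 10, 60.2 and 52.6 at 12, 77.1 and 69.6 at 14 and 60.5 and 53.6 TPM at 16 hpf. PNP pools held it at 59.0 and 49.2 TPM at 8 hpf, 70.0 and 47.9 at 10, 76.4 and 63.7 at 12, 79.6 and 81.5 at 14 and 69.1 and 59.7 TPM at 16 hpf. Its highest stage mean, at 14 hpf, was 1.52-fold the lowest, at 8 hpf, the smallest range of any member. The F test over stages passed (adjusted p = 0.00688), but not after median-of-ratios scaling (adjusted p = 0.22) nor within either pool alone, and no single step passed. Because tbx6 climbed and ripply1 changed little, ripply1 over tbx6 lay between 6.31 and 9.44 in the libraries of 8 hpf and between 1.00 and 1.14 at 16 hpf, a log2 change of -2.93 (exact permutation test, p = 0.0286).

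**Figure D3:**
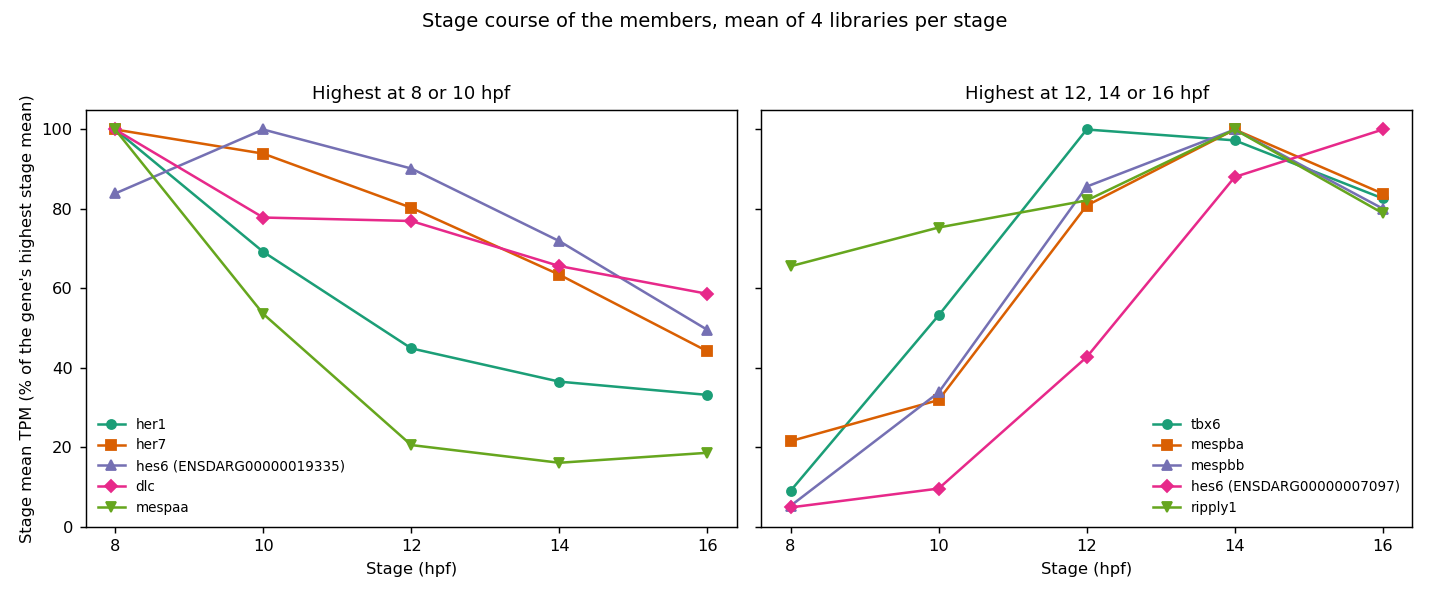
Stage mean TPM of each member (4 libraries per stage) as a percentage of the same gene's highest stage mean, against stage in hpf. In the left panel her1 and mespaa drop early, her7 late and dlc over the whole period; in the right panel tbx6 and both mesp-b genes climb by 12 hpf, hes6 (ENSDARG00000007097) follows, and ripply1 varies least.

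Step by step, 5 of 10 members passed the test between 8 and 10 hpf (3 higher, 2 lower; of all genes 36.5% passed, 21.5% higher and 15% lower), 6 between 10 and 12 hpf (4 higher, 2 lower; of all genes 38.6%, 24.5% higher and 14.1% lower), 2 between 12 and 14 hpf (1 higher, 1 lower; of all genes 23%, 13.9% higher and 9.08% lower) and 2 between 14 and 16 hpf (both lower; of all genes 15.7%, 8.92% higher and 6.76% lower). On the log2(TPM + 1) scale the largest step of any member was that of tbx6 from 8 to 10 hpf, 2.32, followed by that of mespbb, 1.83. That scale understates the change of mespbb, whose mean went from 0.89 to 5.72 TPM, more than that of tbx6, from 6.28 to 36.98 TPM. The counts of the last 2 steps rest on few libraries. The count from 12 to 14 hpf was 1 without MPNP library 1 or PNP library 2 of 12 hpf, and without MPNP library 1 or PNP library 2 of 14 hpf. It was 3 without PNP library 1 of 12 hpf. The count from 14 to 16 hpf was 1 without library 2 of either pool at 14 hpf or without PNP library 1 of 16 hpf, with her7 alone passing.

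The order of the members by level changed accordingly. At 8 hpf hes6 (ENSDARG00000019335) led, followed by her1, then by her7, dlc, ripply1 and mespaa, whose neighbours in that order overlapped, and then by tbx6 at a mean of 6.28 TPM, mespba, mespbb and hes6 (ENSDARG00000007097). At 16 hpf the same hes6 row led with a mean of 192 TPM, and her1, mespbb, the second hes6 row, mespaa and mespba took the last places, with means of 21.4, 13.5, 9.59, 8.95 and 5.88 TPM. Over the 20 libraries the log2 levels of mespbb and tbx6 correlated at Pearson's r = 0.97, those of her1 and mespaa at 0.967 and those of mespaa and mespbb at -0.941. The points share stage, so these values describe a common or opposite course and carry no test.

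Genes outside the members were ranked by likeness of log2 levels over the 20 libraries, and those with clone-derived names were passed over. The genes most like her1 were then snw1 (r = 0.986) and dynll2 (ENSDARG00000069790, 0.985), those most like mespaa inavab (0.978) and the integrin gene itga5 (0.977), and those most like tbx6 osbpl10 and ssbp4 (0.985 each). For mespbb they were cracdlb (0.989) and g0s2 (0.987), for mespba itsn1 (0.968) and smad3 (ENSDARG00000010207, 0.964), and for hes6 (ENSDARG00000007097) zbtb16b (0.994) and angptl2b (0.993). For her7 they were sft2d3 (0.975) and nova1 (ENSDARG00000020178, 0.97), for dlc ppil1 (0.968) and scaf1 (0.963), and for hes6 (ENSDARG00000019335) pcsk6 and slc38a7 (0.965 each). Ripply1 had the least close companions, extl3 (0.88) and jazf1 (ENSDARG00000056793, 0.877). Here too stage is what the libraries share.

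MPNP and PNP pools were then compared at each stage. No member passed at 8, 10, 12, 14 or 16 hpf (0 of 10 each), where 0.311%, 0.203%, 0.291%, 0.684% and 1.39% of all genes passed. At an unadjusted p below 0.05 there was 1 member at 8 hpf (mespba), 0 at 10 hpf, 1 at 12 hpf (mespbb), 1 at 14 hpf (mespaa) and 0 at 16 hpf. For these and all later counts at unadjusted p the share of all genes is not given, so they cannot be set against it. The difference of mespba at 8 hpf was -0.85 ± 0.20 (95% interval -1.29 to -0.41; limma adjusted p = 0.128), from 0.66 and 0.92 TPM in MPNP pools and 2.56 and 1.91 TPM in PNP pools. With the replicate number as a block it passed (SE 0.17, adjusted p = 0.0322), as did 3.92% of all genes. At 12 hpf mespbb differed by -0.52 ± 0.21 (adjusted p = 0.637) and at 14 hpf mespaa by -0.47 ± 0.18 (adjusted p = 0.603).

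The 2 MPNP libraries lay below both PNP libraries for 3 of 10 members at 8 hpf, 1 at 10 hpf, 5 at 12 hpf, 3 at 14 hpf and 4 at 16 hpf. Of all genes tested this held for 19.7%, 22.8%, 18.4%, 12.6% and 14.4% at the same stages. The 5 members of 12 hpf were hes6 (ENSDARG00000007097), mespba, mespbb, ripply1 and tbx6; those of 16 hpf were her1, mespaa, mespba and mespbb. At 14 hpf both MPNP libraries lay above both PNP libraries for 1 of 10 members, mespbb, and for 13.5% of all genes; at 8, 10, 12 and 16 hpf this held for no member and for 13.6%, 8.58%, 9.97% and 15.6% of all genes. By group means of log2(TPM + 1), hes6 (ENSDARG00000019335), mespba and ripply1 were lower in MPNP at 5 of 5 stages and mespaa, mespbb and tbx6 at 4 of 5. For her1 and hes6 (ENSDARG00000007097) it was 3 of 5, for dlc 2 of 5 and for her7 1 of 5. Of all genes 59.6% were below 0 in the average over stages. The share of all genes at each of these stage counts is not given. No change of the pool difference with stage passed a test: for the 16 hpf minus the 8 hpf difference 0 of 10 members passed (0.223% of all genes), and in the F test of pool by stage 0 of 10 (0.102%), with 1 and 0 members at an unadjusted p below 0.05.

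Averaged over the 5 stages, 9 of 10 members were lower in MPNP pools, by small amounts, and none passed the test, where 5.29% of all genes passed. At an unadjusted p below 0.05, for which no share of all genes is given, there were 2 members. Of all genes 59.6% had an average below 0. The median of the members was -0.14 and that of all genes -0.03 (log2); after median-of-ratios scaling these were -0.12 and -0.01, with 52.9% of all genes below 0. The largest differences were those of mespba, -0.27 ± 0.09 (95% interval -0.47 to -0.07; adjusted p = 0.122), and mespbb, -0.26 ± 0.10 (-0.47 to -0.05; adjusted p = 0.162). The average of mespba came mainly from 8 hpf, with a difference of -0.85 at levels between 0.66 and 2.56 TPM. At 10, 12, 14 and 16 hpf its differences were -0.07, -0.15, -0.07 and -0.20. For ripply1 the average was -0.17 ± 0.08 (adjusted p = 0.292), for hes6 (ENSDARG00000019335) -0.17 ± 0.08 (adjusted p = 0.336), for tbx6 -0.14 ± 0.12 (adjusted p = 0.682) and for mespaa -0.14 ± 0.08 (adjusted p = 0.446). For the clock genes her1 and her7 it was -0.08 ± 0.06 (95% interval -0.21 to 0.06) and 0.02 ± 0.06 (-0.11 to 0.15), and for dlc -0.05 ± 0.10. DLD had 0.05 ± 0.07.

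**Figure D4:**
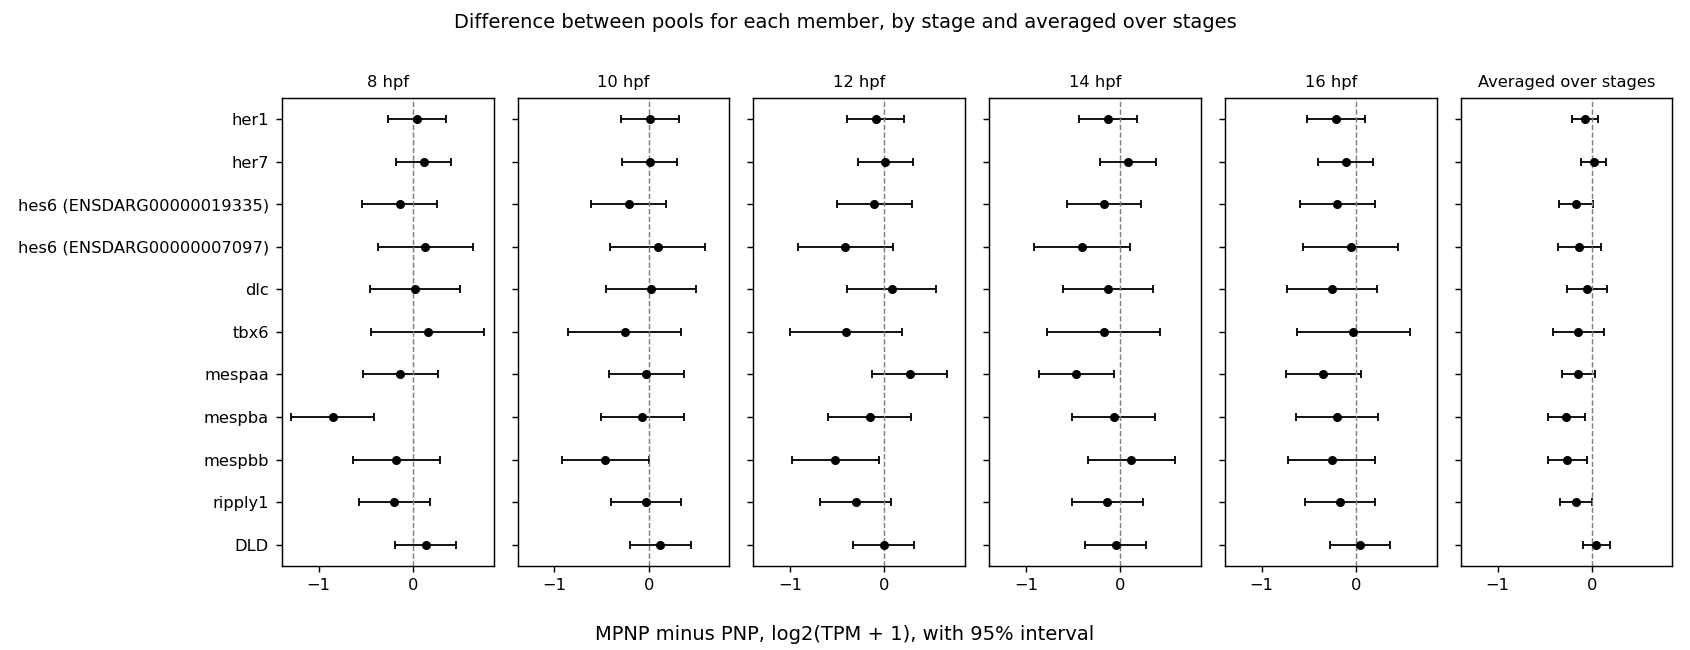
Difference MPNP minus PNP in log2(TPM + 1) on the horizontal axis for each row, by stage and averaged over the 5 stages; points are limma estimates and bars 95% intervals. Most intervals include 0; in the average those of mespba and mespbb lie below it, and so do those of mespba at 8 hpf, mespbb at 12 hpf and mespaa at 14 hpf.

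Libraries with the same number resembled each other in both pools; 5 of 10 members, and 54.5% of all genes, differed between the libraries numbered 2 and those numbered 1 (10 against 10, limma, added after seeing the data). With the replicate number as a block 3 members passed in the average, all lower in MPNP: hes6 (ENSDARG00000019335) with an SE of 0.04 (adjusted p = 0.015), ripply1 with 0.04 (adjusted p = 0.0117) and mespba with 0.08 (adjusted p = 0.0378). In that fit 17.4% of all genes passed in either direction, and 10.4% of all genes passed as lower in MPNP. For hes6 (ENSDARG00000019335) the MPNP library was below the PNP library in 10 of 10 same-numbered pairs, for ripply1, mespba and tbx6 in 9 of 10, for her7 in 4 of 10. The median over all genes was 5. The share of all genes with 9 or 10 such pairs is not given, so these counts cannot be set against it. Within the libraries numbered 1 the average of hes6 (ENSDARG00000019335) was -0.12 and within those numbered 2 it was -0.21; for ripply1 these were -0.20 and -0.14, and for mespba -0.27 and -0.27. None of these passed within 1 number.

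Other measurements moved with the pools. Along the stage course of all genes other than the members, MPNP libraries stood 0.188 h earlier than PNP libraries at 8 hpf, 0.378 h earlier at 10 hpf, 0.378 h earlier at 12 hpf and 0.197 h earlier at 14 hpf, and 0.212 h later at 16 hpf. These values compare means of 2 libraries per pool. The 2 MPNP libraries stood at -0.018 and -0.36 h from the stage mean at 12 hpf and at -0.2 and 0.003 h at 14 hpf. In offset the pools did not overlap at any stage. With each library's offset removed gene by gene, the difference of tbx6 was 0.05 ± 0.29 at 10 hpf in place of -0.25 ± 0.28, and that of mespbb -0.17 ± 0.22 in place of -0.46 ± 0.21; at 12 hpf tbx6 was at -0.32 ± 0.29 in place of -0.41 ± 0.28. Other differences grew: mespaa at 10 hpf was at -0.23 ± 0.18 in place of -0.03 ± 0.18, and tbx6 at 8 hpf at 0.37 ± 0.29 in place of 0.16 ± 0.28. With the offset removed the averages were -0.02 for tbx6, -0.14 for mespbb, -0.20 for mespba and -0.14 for ripply1. They were -0.17 for hes6 (ENSDARG00000019335), -0.24 for mespaa and -0.12 for her1. The median of the members was -0.13 in place of -0.14, with 9 of 10 below 0 in both fits, where 57.7% of all genes were below 0 with the offset removed. The summed level of 29 muscle gene IDs was lower in both MPNP libraries at 8, 10, 12 and 16 hpf, and the pools overlapped at 14 hpf. At 12 hpf it was between 409 and 492 TPM in MPNP libraries and between 548 and 649 TPM in PNP libraries, and at 16 hpf between 1213 and 1282 TPM in MPNP libraries and between 1309 and 1481 TPM in PNP libraries. That of 29 neural IDs was between 1030 and 1139 TPM in MPNP and between 1224 and 1247 TPM in PNP libraries at 16 hpf and was also lower in both MPNP libraries at 14 hpf; at 10 hpf it was higher in MPNP, between 1776 and 1827 TPM against 1749 to 1763 TPM in PNP libraries, and at 8 and 12 hpf the pools overlapped. Sums of other marker lists parted at some stages too. Those of blood and endothelium at 12 and 16 hpf and of notochord at 12 and 14 hpf were lower in both MPNP libraries. That of the hatching gland was lower at 14 hpf and higher at 16 hpf, that of maternal transcripts higher at 8 hpf and lower at 16 hpf. Sums of epidermis and yolk syncytial layer overlapped at every stage. Of 23 muscle genes tested 18 had an average pool difference below 0, as had 59.6% of all genes. In that average 1 passed as higher and 3 as lower in MPNP, where 5.29% of all genes passed in either direction. The levels of myod1 and myf5 were above 0 TPM in every library of both pools. Abundant genes weigh most in these sums of TPM: actc1a alone had a mean of 275 TPM at 12 hpf and 516 TPM at 16 hpf. In the neural sum sox19a had a mean of 272 TPM and sox3 of 155 TPM at 16 hpf. The part of muscle, neural or other cells in the members' differences was not tested.

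The genes around the members were described through lists of related pathways, gene families and tissues. Levels of the listed genes are those of whole embryos and not of the presomitic mesoderm alone. The counts of each list stand beside all genes tested, of which 44.4% were higher and 31.6% lower at 16 than at 8 hpf, 5.29% passed in the pool average and 17.4% passed there with the replicate block (10.4% as lower in MPNP). Of 20 tested Notch pathway genes 9 were higher and 9 lower at 16 than at 8 hpf. Among the higher were jag2b, a Notch ligand gene (3.59 ± 0.10, adjusted p = 4.17e-12), and notch1 (ENSDARG00000052094), a receptor gene (3.56 ± 0.24, adjusted p = 1.43e-08). The mean of that notch1 row was 0.235 TPM at 8 hpf and 14.1 TPM at 16 hpf. The other notch1 row (ENSDARG00000103554) was more abundant and went the opposite way, from 112 to 77.1 TPM. The mean of lfng was 165 TPM at 8 hpf and 81.3 TPM at 16 hpf. In the pool average 0 of 20 passed in either direction (1 at an unadjusted p below 0.05, and 2 with the replicate block), with a median of 0.01; jag1a had -0.18 ± 0.07 (adjusted p = 0.174).

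Of 13 other her, hes and hey repressor genes, 11 were higher and 0 lower at 16 than at 8 hpf, opposite to her1 and her7. The mean of her2 was 2.64 TPM at 8 hpf and 51.6 TPM at 16 hpf, that of her12 6.33 and 45.7 TPM. In the pool average 1 passed, her8a, lower in MPNP by -0.20 ± 0.05 (adjusted p = 0.0278), and her4.2 had -0.42 ± 0.13 (adjusted p = 0.0887). The call of her8a was lost with the developmental offset removed (adjusted p = 0.0674) and in 10 of 20 fits that left out 1 library (highest adjusted p = 0.0687), those without library 1 of MPNP at 12, 14 and 16 hpf or of PNP at 10 hpf, and without library 2 of MPNP at 8 and 10 hpf or of PNP at 8, 12, 14 and 16 hpf. With the replicate block 4 passed, all lower. Near-identical her4 copies may share reads, so their values are uncertain.

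Of 17 genes of the presomitic mesoderm and tailbud, 5 were higher and 10 lower at 16 than at 8 hpf. The T-box gene tbx16 had means of 134 TPM at 8 hpf and 18.1 TPM at 16 hpf and eve1 of 181 and 19.3 TPM, while tcf15, the paraxis gene of the forming somite, had 2.67 and 94.8 TPM. In the pool average 0 passed (6 at an unadjusted p below 0.05). Of the 17 genes 15 were below 0, as were 59.6% of all genes, and the median was -0.12, with -0.03 over all genes. The lowest values were tcf15 with -0.32 ± 0.09 (adjusted p = 0.0714) and msgn1, a mesogenin gene of presomitic cells, with -0.22 ± 0.07 (adjusted p = 0.0858). With the replicate block 6 passed, 1 higher and 5 lower. Median-of-ratios scaling gave 1, bambi (ENSDARG00000055381), higher in MPNP. Leaving out 1 library gave 1, lower, in 4 of 20 fits: msgn1 without MPNP library 1 of 8 hpf, tcf15 without PNP library 2 of 8 hpf or MPNP library 1 of 12 hpf, and fgf17 without PNP library 1 of 12 hpf.

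Of 28 genes of somite boundaries and somites, 16 were higher and 9 lower at 16 than at 8 hpf; meox1, a homeobox gene of the somite, had means of 0.905 TPM at 8 hpf and 88.8 TPM at 16 hpf. In the pool average 3 were lower in MPNP, meox1 by -0.30 ± 0.06 (adjusted p = 0.00522), foxc1b by -0.30 ± 0.06 (adjusted p = 0.00836) and aldh1a2, a retinoic acid synthesis gene, by -0.22 ± 0.05 (adjusted p = 0.0164). One was higher, rdh10 (ENSDARG00000012369), by 0.46 ± 0.11 (adjusted p = 0.0299). The calls of foxc1b and aldh1a2 were lost with median-of-ratios scaling (adjusted p = 0.0687 and 0.101), and those of meox1 and rdh10 (ENSDARG00000012369) with the offset removed (0.323 and 0.061). In fits that left out 1 library the 3 lower genes passed in 20 of 20. The call of rdh10 was lost in 11 of 20 (highest adjusted p = 0.0701), those without library 1 of PNP at any stage or of MPNP at 16 hpf, and without library 2 of MPNP at any stage. Of 32 FGF, Wnt and retinoic acid genes of the wavefront 9 were higher and 14 lower at 16 than at 8 hpf. In the pool average 0 were higher and 1 lower, tcf7 by -0.31 ± 0.06 (adjusted p = 0.00486). The call of tcf7 was kept with scaling, with the offset removed and without any 1 library, but not within the libraries of 1 number alone. With the offset removed a second wavefront gene passed, raraa, higher in MPNP. Without the filter, and without PNP library 1 of 14 hpf, wnt5b passed as lower in MPNP. With the replicate block 11 boundary genes (2 higher, 9 lower) and 8 wavefront genes (2 higher, 6 lower) passed. Within the libraries numbered 1 alone or numbered 2 alone no Notch, repressor, presomitic, boundary or wavefront gene passed in the pool average. Of all genes 146 and 282 passed there.

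**Figure D5:**
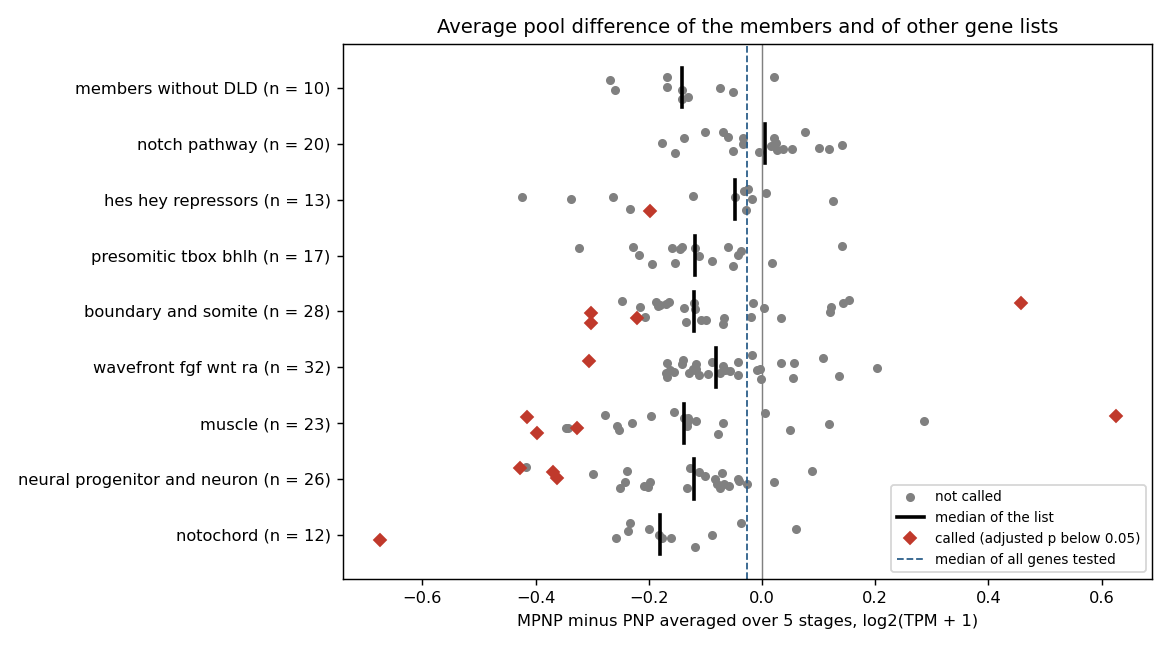
Average difference MPNP minus PNP over 5 stages in log2(TPM + 1) for each tested gene of a list (points; red diamonds have an adjusted p below 0.05), with the list's median as a black bar and the median of all genes as a dashed line. The medians of the members (-0.14), of the presomitic list (-0.12) and of the boundary list (-0.12) lie left of the median of all genes (-0.03), and so do those of the muscle, neural and notochord lists.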

How the data were processed

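Poly(A)-selected RNA of whole zebrafish embryos was sequenced as paired reads of 150 bases from about 500 ng of RNA, with fertilization windows of 15 min, per the labels' protocols. The authors deposited 1 table of TPM values for 32057 Ensembl gene IDs in 20 libraries, with 2 decimals; 4 columns had no name and no values and were left out. GRCz11, R 4.3.3, DESeq2 1.42.1, HTSeq 0.12.3, RSEM 1.3.3 and STAR 2.7.3a are named in the submitters' processing notes; their roles in making the table are not given in the sources used here. Depth cannot be read from TPM, and no counting interval is given. A separate name table gave symbols for 28988 IDs, 12593 of them in capitals, and 1770 symbols are shared by several IDs; only gene order and chromosomes were taken from GRCz12tu.

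The 14774 genes with a mean of at least 1 TPM were analysed as log2(TPM + 1), so fold changes of low genes are understated. limma 3.58.1 (R 4.3.3) fitted 10 group means with an intensity trend (10 residual degrees of freedom). The contrasts were the MPNP minus PNP difference per stage, their mean, the 16 minus the 8 hpf difference, pool by stage (F test), and stage steps of the mean of both pools. The 2-sided p-values were adjusted (Benjamini-Hochberg, all 14774 genes) and read at a threshold of 0.05; errors are SE. Ratios were tested by exact permutation over libraries, without regard to the replicate number. The fit was tested on simulated data in which libraries varied independently. That simulation left out the joint deviation of same-numbered libraries, so it cannot show how the fit behaves with it. Nothing in the labels ties the libraries of a group to separate crosses, so the p-values reflect only the spread between these libraries, which may be technical.

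Same-numbered MPNP and PNP libraries deviated together from their group means (correlation across genes 0.485, 0.586, 0.615, 0.539 and 0.601 at the 5 stages). An alternative fit therefore took the numbers to pair the samples, from the data and not from the labels, which leave their meaning unstated. The main fit did not use the number. The block of replicate number within stage left 5 residual degrees of freedom and was fitted as a fixed term for pool contrasts and, with statmod 1.5.0, as a random term for stage contrasts. The other alternatives were the pseudocount (0.1), no filter, median-of-ratios scaling, no trend, each stage or pool or number alone, removal of a developmental offset, and leaving out each library.

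The members and the lists of other genes were chosen with earlier results of these data known. Named were all members and, of each list, up to 4 genes by p in the pool average and up to 4 by p over stages. For each member the 2 most alike genes were named, leaving out clone-derived names. Symbols are given in lower case, and an ID is added where several IDs share one.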

Additional observations from a re-analysis of the deposited data

How the results depend on the processing

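With the replicate block (same-numbered libraries taken as pairs) the members called were 1 in place of 0 at 8 hpf, 3 in place of 0 in the pool average, 1 in place of 2 at the step from 12 to 14 hpf and 1 in place of 2 from 14 to 16 hpf; beside these and mespba from 8 to 10 hpf the block changed no other call of a member at a stage, at a step or in the average. Replicate number as a term over all stages, added after seeing the data, gave 1 at 8 hpf, 2 in the average, 9 in place of 5 from 8 to 10 hpf and 7 in place of 2 from 12 to 14 hpf. PNP libraries alone gave 1 from 12 to 14 hpf and 0 from 14 to 16 hpf. MPNP libraries alone (added) gave 1 from 14 to 16 hpf. Libraries numbered 2 alone (added) gave 4 from 12 to 14 hpf. Of all genes 2853 passed there, and 3397 at that step in the main fit. Counts over all genes for the other settings named so far stand in the next paragraph. Leaving out 1 library at a time kept the pool counts at 0 to 0, and gave 4 to 5 from 8 to 10 hpf, 6 to 6 from 10 to 12 hpf, 1 to 3 from 12 to 14 hpf, 1 to 2 from 14 to 16 hpf and 10 to 10 over stages. Over all values and settings 3168 kept direction and side of the threshold, 187 lost and 89 gained a call, and no called value changed sign; of 2538 uncalled values recomputed 87 changed sign. The cause was not tested.

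Counts over all genes moved as well. At 8, 10, 12, 14 and 16 hpf and in the average, 46, 30, 43, 101, 205 and 782 genes passed; with the block these were 579, 444, 204, 263, 516 and 2574, and with number as a term 649, 437, 275, 294, 481 and 2378. Each stage fitted alone gave 0, 0, 0, 0 and 61. Leaving out 1 library gave 8 to 48, 5 to 8, 2 to 54, 29 to 83 and 94 to 136 at the 5 stages. Numbers 1 and 2 alone gave 146 and 282 in the average. Without a filter 98 passed at 8 hpf and 375 at 16 hpf, and scaling gave 70 at 8 hpf and 56 at 10 hpf. The 16 minus 8 hpf difference (33) gave 6 with pseudocount 0.1, 103 without a filter, 264 with the block, 275 with number as a term and 6 to 27 without 1 library. Pool by stage (15) gave 0, 59, 71 and 131 under the same 4 settings, 8 with the offset removed and 1 to 21 without 1 library. The 4 steps (5398, 5697, 3397 and 2317) gave 3555, 3776, 1684 and 997 with the block, 8287, 8724, 6452 and 5242 with number as a term, 3442, 3502, 1357 and 706 in PNP alone and 3033, 3410, 1914 and 1313 in MPNP alone, and the last gave 3523 without a filter. Scaling turned 3179 higher and 2219 lower from 8 to 10 hpf into 2752 and 3017, 3618 and 2079 from 10 to 12 hpf into 3232 and 2913, and 27 and 19 at 8 hpf into 53 and 17. Median-of-ratios scaling left ripply1 without a stage call. With 2 libraries per group, a member's pool average had an SE between 0.06 and 0.12.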

Other observations

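Between libraries numbered 2 and 1, 5 of 10 members differed, where 54.5% of all genes did. Libraries numbered 2 minus those numbered 1, over both pools and all stages (10 against 10 libraries; limma with stage and pool in the fit), differed for dlc by 0.31 ± 0.04 (adjusted p = 3.47e-05), for hes6 (ENSDARG00000007097) by 0.28 ± 0.07 (adjusted p = 0.00443) and for hes6 (ENSDARG00000019335) by 0.23 ± 0.04 (adjusted p = 0.000453). For ripply1 the difference was -0.22 ± 0.04 (adjusted p = 0.00076) and for tbx6 -0.29 ± 0.09 (adjusted p = 0.012). The differences of her1, her7, mespaa, mespba and mespbb lay between -0.08 and 0.10 and did not pass. The labels do not say what the number stands for, and this comparison was added after seeing the data.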
